A study of Homo sapiens with 9 samples.

Results

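The chromosome 11q12 to q13 band was defined by position, as the γH2AX regions of chromosome 11 whose midpoint lay from 60 to 77 Mb on the hg19 build. Of the 234983 regions in the 8 lists of the series, 5270 met this rule, and 8013 lay on the rest of chromosome 11. The lists came from chromatin immunoprecipitation and sequencing (ChIP-seq) of the established human cell line K562, from a myelogenous leukaemia, in a study of how FANCL loss affects DNA repair and blood cell differentiation. The 4 groups had 2 libraries each. KO PMA cells were knocked out (KO) for FANCL and received 5 nM PMA, a phorbol ester used to push K562 cells towards differentiation, and KO mock cells carried the knockout with a mock treatment. WT PMA cells were wild type (WT) with 5 nM PMA, and WT mock cells were wild type with the mock treatment. All treatments lasted 72 h. A ninth sample, the input of WT mock cells, was the comparison library for every list. The labels do not say whether the KO line was 1 clone or whether replicates were separate cultures, so the p-values speak only of the spread seen between libraries, and that spread may be technical. The lists hold no measure of FANCL itself.

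H2AX is a histone variant whose phosphorylated form, γH2AX, marks chromatin around DNA breaks and stalled replication and can spread over long stretches from 1 lesion. FANCL is the ubiquitin ligase of the Fanconi anaemia core complex, which marks FANCD2 and FANCI so that DNA crosslinks and stalled forks are repaired. The band from 11q12 to q13 is among the gene-rich parts of the human genome. By gene order in RefSeq (GRCh38.p14), 358 of the 1301 protein-coding genes of chromosome 11, 27.5%, stand from MS4A1 to MYO7A, genes that general knowledge places inside the band, while the band was 12.6% of the span of the chromosome up to the last called position. No gene annotation of hg19 was used here, so the windows below carry positions and not gene calls.

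Depth ran from 15.6 to 27.2 M (mega) tags per library. The share of a library's tags inside its regions, anywhere in the genome, was 7.96 and 6.69% in KO PMA, 3.42 and 3.67% in KO mock, 4.69 and 4.24% in WT PMA and 1.55 and 1.39% in WT mock. This share is also a measure of how efficient the immunoprecipitation was and moved with the groups, and its part in the differences in covered length was not tested. No input of KO or PMA cells was used here, so a different copy number of the band in KO cells cannot be told apart from more γH2AX.

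γH2AX covered a larger part of the band in KO PMA cells than in any other group. Covered length, the total of all called base pairs, was 2009 and 1668 kb in the KO PMA libraries, 590.3 and 591.0 kb in KO mock, 154 and 171 kb in WT PMA, but 65.98 and 64.9 kb in WT mock. The groups did not overlap, and both KO groups lay above both WT groups. As a share of the band this was 10.8% ± 1.42 in KO PMA, 3.47% ± 0.0029 in KO mock, 0.955% ± 0.0695 in WT PMA and 0.385% ± 0.0045 in WT mock (mean ± SD, n = 2 each). With the treatments pooled, covered length was 10.1-fold higher in KO than in WT libraries, and with the genotypes pooled it was 2.77-fold higher in PMA than in mock libraries. Each of these had a two-sided exact permutation p of 0.0556 over 36 labellings, the smallest that this design allows. The genotype difference, 3.34 on the log2 scale, was 1.64 when regions under 6-fold over input were left out, 4.84 with one tag threshold for all libraries and 7.07 with regions of at least 1000 bp. The PMA difference, 1.47 on this scale, was 0.45 (exact permutation p = 0.333) when every library was reduced to the same number of regions and 2.77 with regions of at least 1000 bp.

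Elsewhere on chromosome 11 the genotypes differed less in total covered length. Covered length there was 1134 and 907 kb in KO PMA, 473 and 458 kb in KO mock, 1246 and 922 kb in WT PMA, with 393 and 369 kb in WT mock. KO PMA and WT PMA overlapped, and across treatments the KO libraries were 1.07-fold of WT (exact permutation p = 0.5). The band therefore took 63.9 and 64.8% of the covered length of chromosome 11 in KO PMA and 55.5 and 56.4% in KO mock, against 10.99 and 15.6% in WT PMA and 14.4 and 15.0% in WT mock. The WT shares lay on either side of the 12.6% that the band spans. The share was 4.33-fold larger in KO than in WT libraries (exact permutation p = 0.0556, the smallest possible), and it stayed larger in KO under each alternative tried, from 1.51 to 5.22 on the log2 scale. PMA over mock it was 1.01-fold (exact permutation p = 0.944), and with regions of at least 1000 bp its log2 difference was 1.04 (exact permutation p = 0.0556). Covered kb per Mb in the band was 12.3 and 12.8 times that of the rest of the chromosome in the KO PMA libraries, 8.66 and 8.96 times in KO mock, 0.857 and 1.28 times in WT PMA, and 1.16 and 1.22 times in WT mock. The ratio was above 1 in 7 of 8 libraries (exact sign-flip permutation p = 0.0234). This test pools all 4 groups, and the WT ratios lay from 0.857 to 1.28, so its mean describes neither genotype alone. With only regions of at least 1000 bp the mean log2 ratio over the 8 libraries was 0.58 (exact permutation p = 0.625) in place of 1.78, and with one tag threshold 1.70 (exact permutation p = 0.102). The rest of chromosome 11, here and below, includes the chromosome's ends. From 134.5 to 135.0 Mb WT mock held 102 kb on average, the most of any window outside the band in that group. From 0 to 0.5 Mb the mean was 127 kb in KO PMA, 44.1 kb in KO mock, 64.4 kb in WT PMA and 68.9 kb in WT mock. The totals were not computed without these windows.

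**Figure D1:**
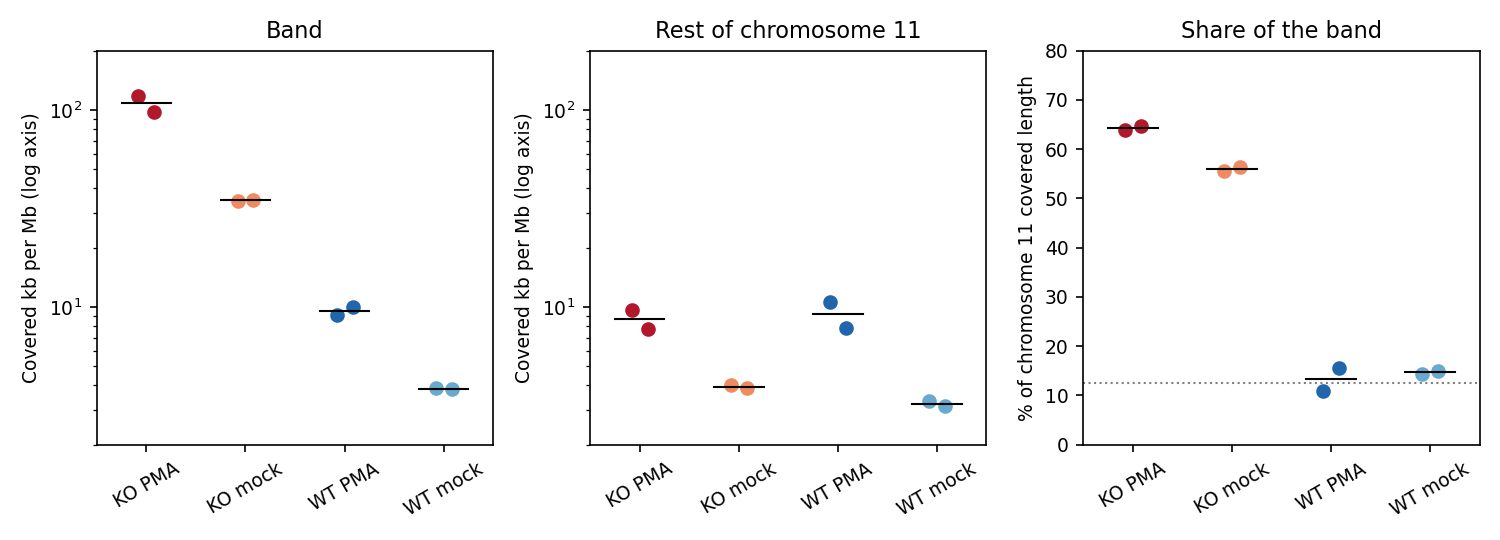
Covered kb per Mb in the band (left) and on the rest of chromosome 11 (middle), both on log axes, and the band's share of the covered length of chromosome 11 (right, in %), with 1 point per library and a line at the mean of each group (n = 2). In the band all 4 KO points lie above all 4 WT points, on the rest of the chromosome KO PMA and WT PMA overlap, and the dotted line marks the 12.6% of the chromosome's span that the band takes up.

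More regions and wider regions both went with the larger covered length. The band held 1525 and 1373 regions in KO PMA, 801 and 765 in KO mock, 258 and 303 in WT PMA, and 125 and 120 in WT mock. In KO mock over WT mock cells the number was 6.39-fold higher and the mean width 1.41-fold, in KO PMA over WT PMA 5.18- and 2.18-fold, and in KO PMA over KO mock 1.85- and 1.68-fold (exact permutation p = 0.333 for each pair of groups, the smallest possible). Mean width was 1317 and 1215 bp in KO PMA, 737 and 773 bp in KO mock, 597 and 563 bp in WT PMA, and 528 and 541 bp in WT mock. Outside the band it was 886 and 817 bp in KO PMA, 649 and 650 bp in KO mock, 696 and 659 bp in WT PMA, and 754 and 772 bp in WT mock. Band regions were thus wider on average than the others in all 4 KO libraries and narrower in all 4 WT libraries.

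The caller joins windows of 500 bp, and many band regions were such single windows. Regions of at most 500 bp made up 41.4 and 42.8% of the band regions in KO PMA, 56.8 and 55.3% in KO mock, 72.1 and 73.6% in WT PMA, and 88.8 and 81.7% in WT mock. The median width was 677 and 650 bp in KO PMA and 500 bp in each of the 6 other libraries. There were 58 and 38 regions of 5 kb or more in KO PMA and 1 and 0 in KO mock, and none was called in the 4 WT libraries. The rest of the chromosome had 9 and 5 in KO PMA, 0 and 0 in KO mock, 0 and 2 in WT PMA, and 6 and 4 in WT mock. The long band regions of KO PMA were of moderate height, with a median of 3.715- and 4.005-fold over input by the authors' own values and none above 5.45-fold. The longest band region of each library ran from 65155479 to 65181949 in KO PMA replicate 1 (26470 bp) and from 64019514 to 64036233 in KO PMA replicate 2 (16719 bp). In KO mock the longest were 5658 and 3928 bp, in WT PMA 1944 and 1756 bp, and in WT mock 1319 and 1412 bp.

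The marked length of KO cells was concentrated in the proximal part of the band. In KO PMA the 500-kb windows of the band held from 0 to 244 kb, with a median of 20.1 kb, and 13 of 34 held at least 50 kb, against 4 of 236 windows on the rest of the chromosome. In KO mock they held up to 59.1 kb, in WT PMA up to 13.31 kb and in WT mock up to 5.96 kb. The windows from 61.5 to 67.5 Mb, a stretch chosen after their values were seen, held 78.6 and 79.0% of the band's covered length in KO PMA and 62.1 and 64.9% in KO mock, against 27.9 and 38.9% in WT PMA and 46.2 and 52.1% in WT mock. Of the KO PMA regions of at least 5 kb, 55 of 58 and 38 of 38 lay there. The windows from 67.5 to 71.5 Mb held 106 and 96.2 kb in KO PMA, 89.1 and 83.4 kb in KO mock, 29.5 and 25.4 kb in WT PMA, with 5.0 and 6.15 kb in WT mock. The KO groups lay closer together in this second stretch than in the first, and did not overlap. Like the first, the second stretch and the one after it were chosen after the values were seen. From 71.5 to 77 Mb the covered length was 290 and 232 kb in KO PMA, 107 and 102 kb in KO mock, 71.7 and 70.5 kb in WT PMA, with 27.5 and 21.0 kb in WT mock.

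**Figure D2:**
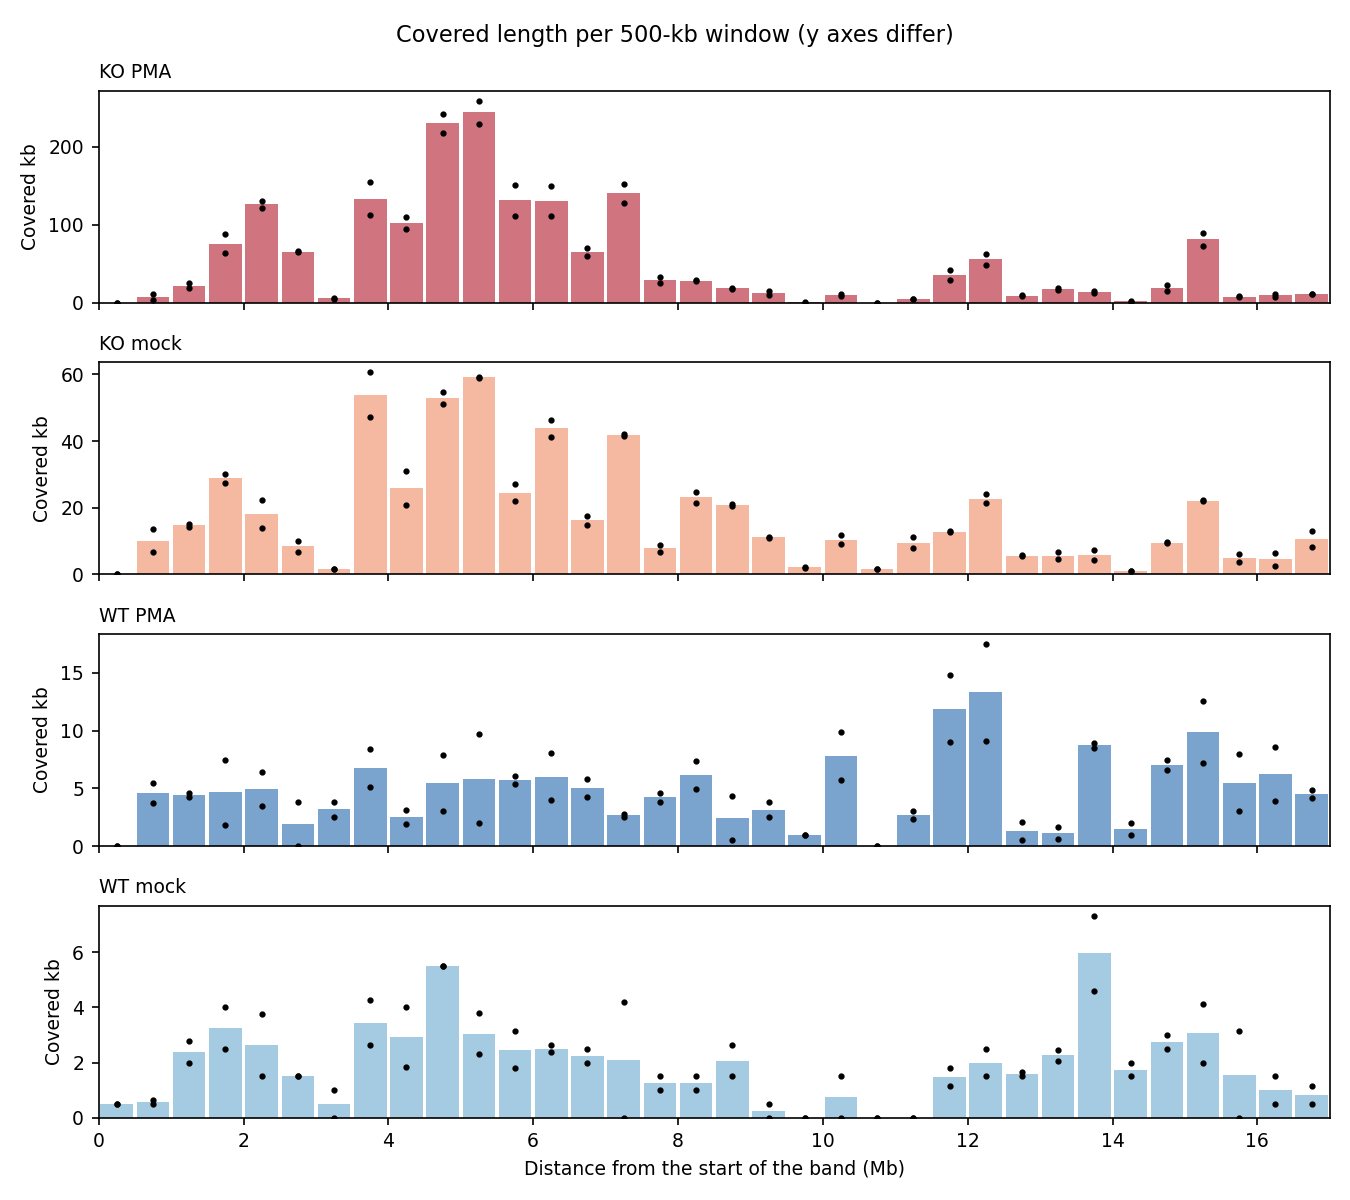
Covered kb in each of the 34 windows of 500 kb along the band, by distance in Mb from the start of the band, with bars at the mean of a group and points at its 2 libraries; the y axes differ between groups. The KO groups peak in the window from 65 to 65.5 Mb, at a mean of 244 kb in KO PMA and 59.1 kb in KO mock, and the WT groups peak elsewhere, at 13.31 kb in WT PMA, with 5.96 kb in WT mock.

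The order of the windows by covered length was most alike between both KO groups. Spearman's rho over the 34 windows was 0.887 between KO PMA and KO mock, 0.761 between KO PMA and WT mock, 0.637 between KO mock and WT mock, 0.461 between KO mock and WT PMA, 0.44 between KO PMA and WT PMA, and 0.428 between WT PMA and WT mock. The 3 pairs with WT PMA were thus the lowest. These are descriptions of windows that share base composition and gene content, and all libraries share 1 input.

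The window with the most γH2AX in KO cells ran from 65 to 65.5 Mb. It held 259 and 229 kb in KO PMA, 58.9 and 59.3 kb in KO mock, 2.0 and 9.69 kb in WT PMA, with 2.305 and 3.81 kb in WT mock. In KO PMA 48.9% of its length was covered on average, and it included the longest region of replicate 1. General knowledge of the hg19 map, not checked against an annotation here, places NEAT1 and MALAT1, abundant nuclear long noncoding RNAs, and their neighbour FRMD8 in this window. The next window on the proximal side, from 64.5 to 65 Mb, held 242 and 217 kb in KO PMA, 51.1 and 54.7 kb in KO mock, 3.0 and 7.925 kb in WT PMA, with 5.5 kb in each WT mock library. In these 2 windows every KO value exceeded every WT value by more than the spread between replicates. The most covered window of WT PMA ran from 72 to 72.5 Mb and held 62.7 and 48.2 kb in KO PMA, 21.3 and 24.0 kb in KO mock, 9.12 and 17.5 kb in WT PMA, with 2.5 and 1.5 kb in WT mock. That of WT mock ran from 73.5 to 74 Mb and held 15.3 and 12.2 kb in KO PMA, 7.16 and 4.28 kb in KO mock, 8.51 and 8.94 kb in WT PMA, with 7.32 and 4.60 kb in WT mock. In that last window KO mock and WT mock overlapped.

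Some windows of the band held little in any group. From 60 to 60.5 Mb no region was called in the 4 KO libraries or in WT PMA, and 0.5 kb was covered in each WT mock library. The same general map places genes of the MS4A family there, among them MS4A1, which encodes the B-cell antigen CD20. From 69.5 to 70 Mb, where FGF3, FGF4 and FGF19 are placed (genes of secreted growth factors), 0 and 0.5 kb was covered in KO PMA, 2.0 and 2.2 kb in KO mock, 1.0 kb in each WT PMA library and 0 in both WT mock libraries. From 70.5 to 71 Mb, a window that the map places largely within SHANK2, a gene of a postsynaptic scaffold, KO mock alone had regions, at 1.5 kb in each library. In these 3 windows no covered base was shared between the replicates of any group. The window from 69 to 69.5 Mb, where CCND1 is placed, the gene of the cell-cycle regulator cyclin D1, held 14.2 and 9.7 kb in KO PMA, 10.97 and 11.2 kb in KO mock, 3.78 and 2.5 kb in WT PMA, with 0 and 0.5 kb in WT mock.

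In mock-treated cells, 26 of the 34 windows of the band were higher in KO than in WT, and 1 was lower. Over all 3158 windows of the genome tested with limma on log2(covered bp + 1000), 26.4% were higher and 5.1% lower at a Benjamini-Hochberg adjusted p of 0.05. Outside the band, 24 of the 128 tested windows of chromosome 11 were higher and 5 lower. The median difference was 2.52 on this log2 scale in the band, 0.29 on the rest of the chromosome and 0.29 over all windows. The largest difference was in the window from 67 to 67.5 Mb, with 41.4 and 42.2 kb in KO mock against 4.2 and 0 kb in WT mock (log2 4.23, SE 0.72, limma adjusted p = 0.00788). The window from 65 to 65.5 Mb followed at 3.91 (SE 0.58, limma adjusted p = 0.00481). From 66 to 66.5 Mb, KO mock held 41.1 and 46.4 kb against 2.39 and 2.63 kb in WT mock (log2 3.67, SE 0.32). From 63.5 to 64 Mb it held 47.1 and 60.6 kb against 2.63 and 4.28 kb (log2 3.64, SE 0.32). The smallest SE of these 5 windows, 0.24, was that from 68 to 68.5 Mb, with 21.5 and 24.65 kb in KO mock against 1.0 and 1.5 kb in WT mock (log2 3.43, limma adjusted p = 0.000917). In none of these 5 windows did the groups overlap. The lowered window, from 60 to 60.5 Mb, is the one with 0.5 kb in each WT mock library, and its log2 difference of −0.58 rests on that single caller window per library. When regions under 6-fold over input were left out, 5 windows were called, all higher, with the share over all windows at this setting not given.

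After PMA, 23 of the 34 windows were higher in KO than in WT and none was lower, while over the genome 15.9% were higher and 32.9% lower. Limma without the trend or with a pseudocount of 5000 bp called 1 band window lower. At an unadjusted limma p of 0.05 in the fit used here, in either direction, 24 of the band's 34 windows passed. So did 70 of 128 on the rest of the chromosome and 1747 of 3158 over the genome. Outside the band, 13 of 128 windows of the chromosome were higher and 43 lower in the same fit. The median difference was 2.03 in the band, −0.75 on the rest of the chromosome and −0.50 over all windows. The largest difference of this comparison in the band was again in the window from 65 to 65.5 Mb, described above (log2 5.43, SE 0.58, limma adjusted p = 0.00153). The window from 64.5 to 65 Mb followed (log2 5.27, SE 0.37, limma adjusted p = 0.000723). From 67 to 67.5 Mb, KO PMA held 152 and 128 kb against 2.5 and 2.82 kb in WT PMA (log2 5.27, SE 0.72). From 62.5 to 63 Mb it held 66.2 and 64.3 kb against 0 and 3.815 kb in WT PMA (log2 4.92, SE 0.71), and from 64 to 64.5 Mb 110 and 94.6 kb against 3.13 and 1.91 kb (log2 4.89, SE 0.36). The KO values exceeded the WT values many times over in each of these windows. From 69.5 to 71.5 Mb none of the 4 windows passed the threshold. When each library was centred at its median window, 32 windows of the band were higher and none lower. When regions under 6-fold were left out, 13 were higher. Shares over all windows are not given for these settings, so the counts cannot be set against the genome.

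**Figure D3:**
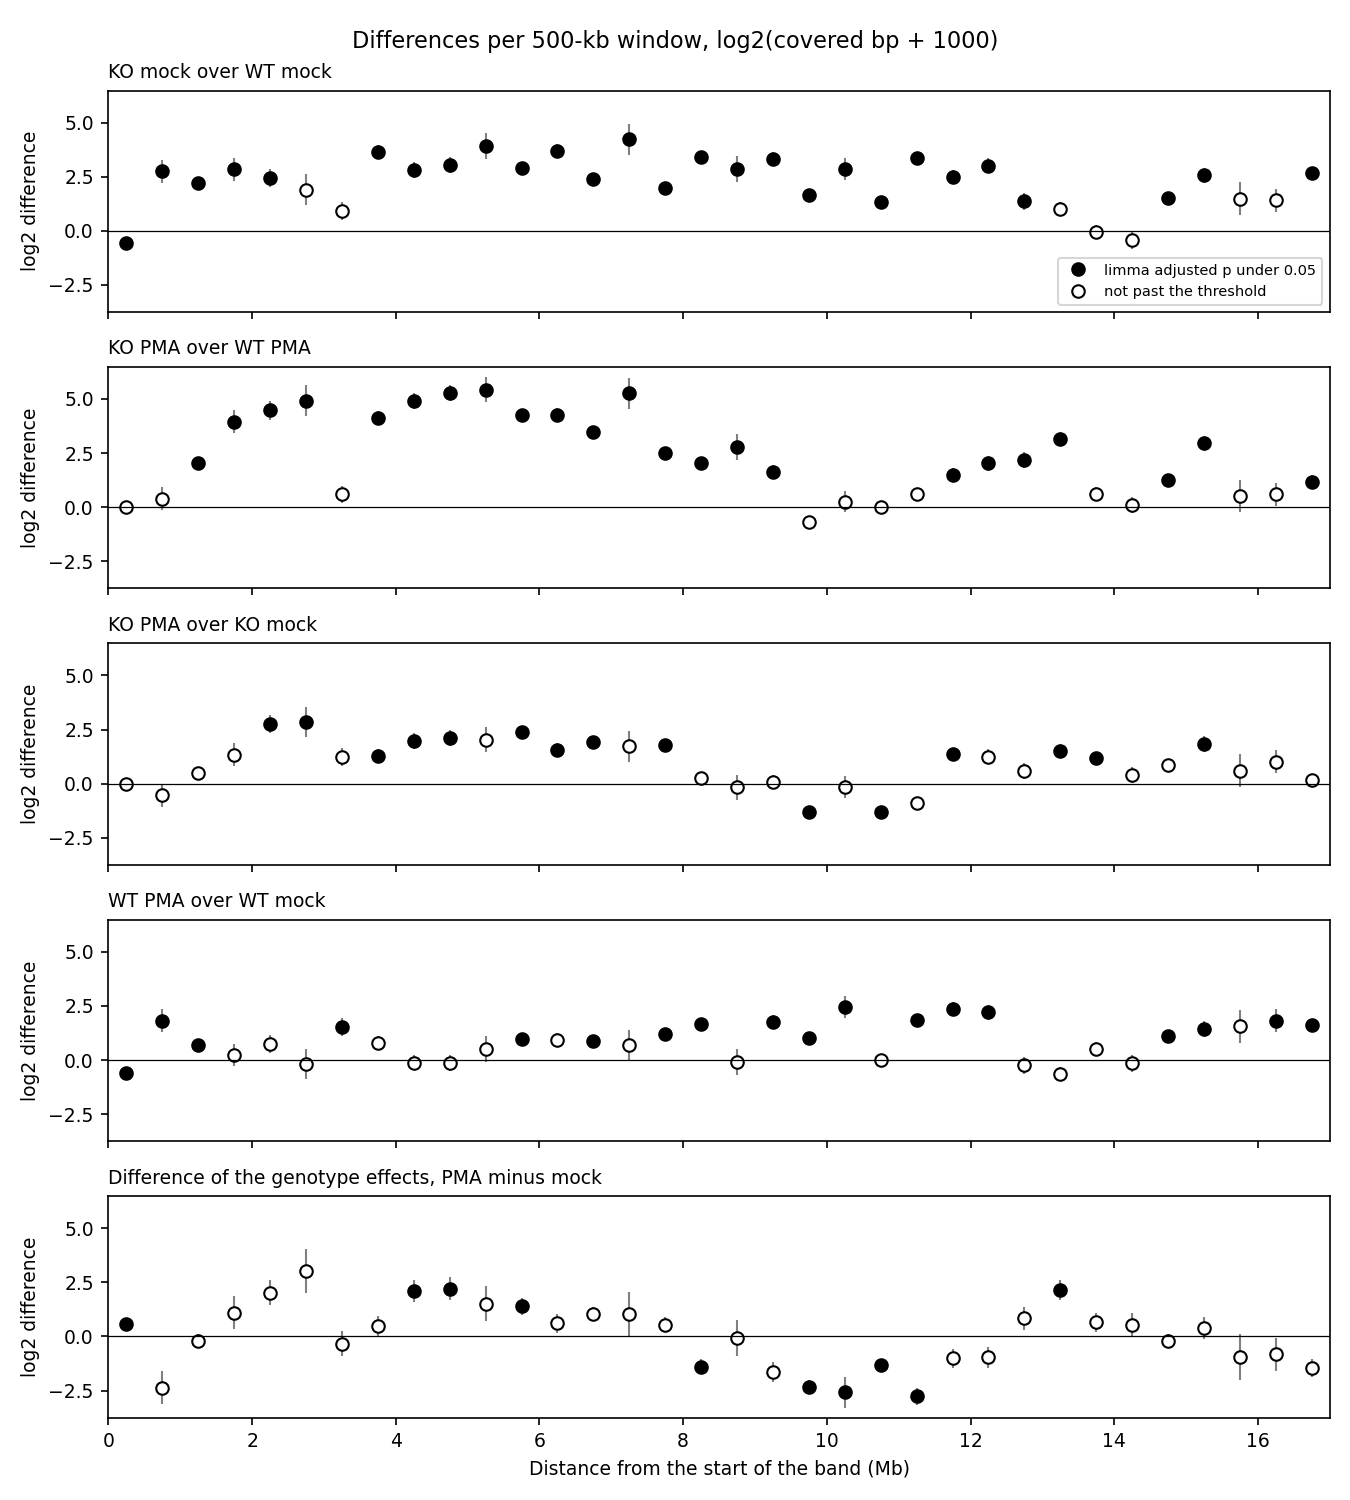
Log2 differences of covered length (+1000 bp) in the 34 windows of 500 kb along the band, by distance in Mb from its start, for 4 pairs of groups and for the difference between both genotype effects; points are limma estimates, lines their SE, and filled points have an adjusted p under 0.05. After PMA, 11 of the 12 genotype differences from 1.5 to 7.5 Mb are past the threshold (up to 5.43), and the PMA difference in KO cells lies from −1.34 to 0.27 from 8 to 11.5 Mb. Both stretches were chosen after the values were seen.

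In KO cells covered length was higher after PMA than after mock treatment in part of the band. KO PMA exceeded KO mock in 13 of 34 windows and was below it in 2, where 15.0% of all windows of the genome were higher and 6.02% lower, and on the rest of the chromosome 18 of 128 were higher and 7 lower. The median difference was 1.19 in the band, and 0.29 on the rest of chromosome 11, against 0.26 over all windows. From 62.5 to 63 Mb, KO PMA held 66.2 and 64.3 kb against 10.1 and 6.71 kb in KO mock (log2 2.84, SE 0.71, limma adjusted p = 0.0412). From 62 to 62.5 Mb it held 131 and 122 kb against 22.4 and 13.99 kb (log2 2.76, SE 0.42, limma adjusted p = 0.00977). The window from 65.5 to 66 Mb held 151 and 111 kb against 27.0 and 21.9 kb (log2 2.37, SE 0.27). Those from 64.5 and from 64 Mb differed by 2.10 (SE 0.37) and 1.97 (SE 0.36). Of the 12 windows from 61.5 to 67.5 Mb, 8 passed, and all 12 had positive differences. That stretch was chosen after the values were seen, KO PMA among them, so these counts only describe it.

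Further along the band the counts differed. In the 8 windows from 67.5 to 71.5 Mb, a stretch also chosen after the values were seen, 1 was higher and 2 lower in KO PMA, with a median of −0.16. The lowered windows were those from 69.5 to 70 Mb (log2 −1.34, SE 0.24, limma adjusted p = 0.0154) and from 70.5 to 71 Mb (−1.32, SE 0.09, limma adjusted p = 0.00392), which hold at most 2.2 kb in any library. The number of changed windows depended on single libraries: it was 3 or 6 without KO PMA replicate 1 or 2 and 4 or 2 without KO mock replicate 1 or 2, in fits where the lone library is assumed to vary like the other groups. It was also 2 when regions under 6-fold over input were left out, 7 with the same number of regions in every library, and 9 with one tag threshold or a pseudocount of 100 bp.

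In WT cells the share of band windows that were higher after PMA was near that of the genome. WT PMA exceeded WT mock in 17 of 34 windows and was below it in 1, where 54.4% and 1.99% of all windows were higher and lower, and on the rest of chromosome 11 in 75 of 128 and in 1. The median difference was 0.91 in the band, 1.52 on the rest of chromosome 11 and 1.22 over all windows. When each library was centred at its median window, none was higher and 11 were lower, so the direction of this comparison depends on the scaling. From 70 to 70.5 Mb, WT PMA held 9.87 and 5.77 kb against 1.5 and 0 kb in WT mock (log2 2.44, SE 0.50, limma adjusted p = 0.0102). From 71.5 to 72 Mb it held 14.8 and 9.01 kb against 1.82 and 1.14 kb (log2 2.35, SE 0.31), and from 72 to 72.5 Mb 9.12 and 17.5 kb against 2.5 and 1.5 kb (log2 2.21, SE 0.35). The window from 71 to 71.5 Mb held 2.325 and 3.03 kb against 0 in both WT mock libraries (log2 1.87, SE 0.27), and that from 76 to 76.5 Mb 8.57 and 3.92 kb against 1.5 and 0.5 kb (log2 1.83, SE 0.54). These 5 windows, the largest differences, lie in the distal part of the band, but not all raised windows did. WT PMA was higher in 2 of 3 windows from 60 to 61.5 Mb and in 3 of 12 from 61.5 to 67.5 Mb. Further along it was higher in 6 of 8 from 67.5 to 71.5 Mb and in 6 of 11 from 71.5 to 77 Mb. The lowered window was again that from 60 to 60.5 Mb. The number of changed windows was 10 without WT PMA replicate 1, 11 without WT mock replicate 2, 5 at 6-fold or with one tag threshold, and 3, all lower, with equal numbers of regions. In the windows from 64 to 65 Mb, WT PMA and WT mock overlapped.

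The genotype effect after PMA differed from that under mock in both directions along the band. By the interaction term in limma, it was larger after PMA in 5 windows and smaller in 5, where 2.41% of all windows were larger and 21.9% smaller. The median difference between the effects was 0.44 in the band, −0.98 on the rest of chromosome 11 and −0.89 over all windows. After centring each library 17 windows were larger and none smaller, so the split depends on the scaling. The share over all windows after centring is not given. The number past the threshold was 4 to 5 without either KO PMA library, 2 without either KO mock library, 5 without WT PMA replicate 1, and 6 and 5 without WT mock replicates 1 and 2.

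Regions of the band were called again in the second library in a larger share in KO than in WT cells. In KO PMA 758 of the 1525 regions of replicate 1 overlapped a region of replicate 2 by at least 1 bp (49.7%, exact 95% Clopper-Pearson interval 47.2 to 52.2%), and in KO mock 297 of 801 (37.1%, 33.7 to 40.5%). In WT PMA it was 33 of 258 (12.8%, 8.97 to 17.5%) and in WT mock 7 of 125 (5.6%, 2.28 to 11.2%). These intervals cover counting error only, and since neighbouring regions are not independent, they are too narrow. Outside the band the shares were 31.6% in KO PMA, 23.5% in KO mock, 23.3% in WT PMA and 20.5% in WT mock. The band was thus the more reproducible part in both KO groups and the less reproducible part in both WT groups. The Jaccard index over base pairs between replicates was 0.389, 0.167, 0.036 and 0.019 in the band and 0.217, 0.096, 0.106 and 0.164 on the rest of the chromosome, for KO PMA, KO mock, WT PMA and WT mock in this order. The order of the groups depended on the regions used: when those under 6-fold over input were left out, the shares were 18.6% in KO PMA, 10.1% in KO mock, 10.5% in WT PMA and 1.72% in WT mock. A list that covers more is more easily met, but the part of this in the shares was not tested. Replicate 2 covered 9.81% of the band in KO PMA and 0.382% in WT mock. On the rest of the chromosome it covered 0.769% in KO PMA and 0.313% in WT mock.

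In KO cells the wider band regions were called again in a larger share than the narrow ones. The WT band had too few wide regions in replicate 1 to compare, 12 in WT PMA and 1 in WT mock. A wide region also meets another by 1 bp more easily. Of the KO PMA band regions of at least 1000 bp in replicate 1, 419 of 508 (82.5%) were called again, and of the narrower ones 339 of 1017 (33.3%). Outside the band these shares were 75.9% and 21.0%. In KO mock they were 72.6% and 30.6% in the band, and 42 of 70 wide regions and 19.6% of narrow ones elsewhere on the chromosome. The WT PMA band had 1 of 12 wide regions and 13.01% of narrow ones called again, against 49.3% and 19.7% on the rest. The only wide band region of WT mock replicate 1 was not called again, against 7 of 124 narrow ones (5.65%), while 76.7% of the 60 wide regions on the rest of the chromosome were. Per window of the band, the median Jaccard index was 0.187 in KO PMA, 0.127 in KO mock, 0.0047 in WT PMA and 0 in WT mock. It was 0 in 3 of 32 windows with regions in KO PMA, 4 of 33 in KO mock, 15 of 32 in WT PMA and 24 of 31 in WT mock. The highest was that from 65 to 65.5 Mb, at 0.6185 in KO PMA, and the same window was the highest in KO mock, at 0.279.

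**Figure D4:**
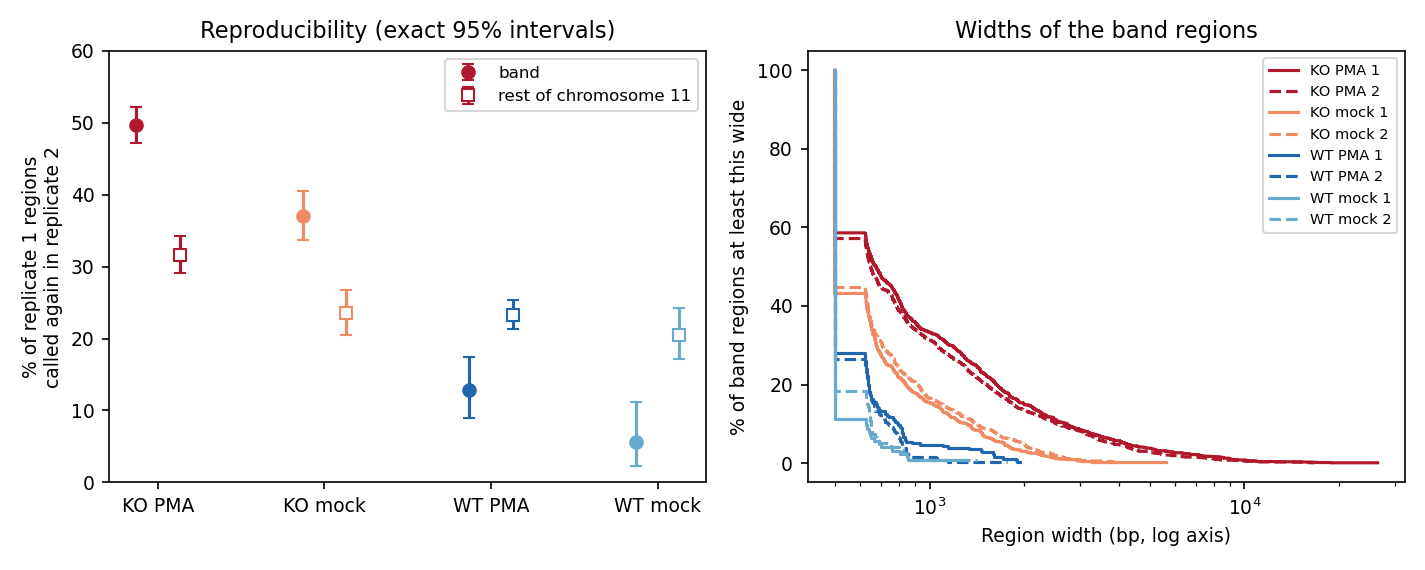
Left, the percentage of replicate 1 regions that overlapped a region of replicate 2, in the band (filled circles) and on the rest of chromosome 11 (open squares), with exact 95% intervals. Right, the percentage of band regions at least as wide as the width on the x axis (bp, log axis), 1 line per library. The band lies above the rest in KO PMA (49.7 against 31.6%) and KO mock, and below it in WT PMA and WT mock, and the KO PMA lines reach furthest to the right.

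Few band regions of KO cells were also called in WT cells, whose lists cover little of the band and seldom met each other there. Of the 758 regions called in both KO PMA libraries, 16 (2.11%) were called in both WT PMA libraries and 620 (81.8%) in neither, against 81 (20.0%) and 204 (50.4%) of 405 such regions on the rest of chromosome 11. Of the 297 called in both KO mock libraries, 1 (0.337%) was called in both WT mock libraries and 274 (92.3%) in neither, against 17 (9.94%) and 122 (71.3%) of 171 on the rest of the chromosome. WT PMA covered 0.955% of the band and 0.919% of the rest of the chromosome, and WT mock 0.385% and 0.323%. The part of this coverage in the overlaps was not tested. The Jaccard index over the band was 0.00671 to 0.0307 between libraries of both genotypes under one treatment, a range that reaches the 0.019 of the WT mock replicates and comes near the 0.036 of the WT PMA replicates. Between the KO groups, 209 of the 297 KO mock regions (70.4%) were called in both KO PMA libraries, and 178 of the 758 KO PMA regions (23.5%) in both KO mock libraries. Outside the band these shares were 50.9% of 171 and 21.98% of 405. Of the 801 band regions of KO mock replicate 1, 166 (20.7%) were called in all 4 KO libraries and in no WT library, and elsewhere on chromosome 11 this held for 26 of 728 regions (3.57%). No band region of WT mock replicate 1 was called in all 4 WT libraries, and 24 of its 521 regions on the rest of the chromosome were.

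By the authors' own fold over input, the typical band region of KO cells was not higher than that of WT cells. The median fold of the band regions was 4.07 and 4.26 in KO PMA, 4.17 and 4.37 in KO mock, 5.375 and 4.82 in WT PMA, and 5.82 and 5.04 in WT mock. Outside the band it was 4.165 and 4.65 in KO PMA, 4.52 and 4.77 in KO mock, 5.24 and 5.11 in WT PMA, and 5.43 and 5.04 in WT mock. The tags of the WT mock input inside the called regions also differed. Scaled to 10 M tags of the input, they numbered 4.95 and 4.88 per kb of band regions in KO PMA, 4.21 and 4.51 in KO mock, 2.58 and 3.22 in WT PMA, and 2.49 and 2.89 in WT mock. Outside the band there were 4.40 and 4.23 in KO PMA, 3.89 and 3.99 in KO mock, 2.79 and 3.30 in WT PMA, and 3.01 and 3.42 in WT mock. Input tags in called regions were thus denser in KO lists, in the band and outside it, and their part in the results was not tested.

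The band regions with the highest fold in both libraries of a group were short and rested on few tags. The 12 regions had at most 4.0 tags of input in the authors' columns, and where the input had none the caller used 0.5 in its place, scaled to 0.4 in some libraries, so their folds and their order are imprecise. In KO PMA the first ran from 71761594 to 71762094 and the second from 65877741 to 65878241, with 6.02 tags per 10 M each in replicate 1. Their folds in replicate 1 were set by that placeholder, as was that of the first region in replicate 2, and are not given. The third ran from 62646415 to 62646915 (15.3- and 17.4-fold in replicates 1 and 2). In KO mock the first ran from 61901343 to 61901843 (11.5- and 19.1-fold), followed by one from 65384629 to 65385311 (9.39- and 21.4-fold) and one of 1357 bp from 63588406 to 63589763 (9.13- and 10.3-fold). In WT PMA they ran from 76637150 to 76637650 (12.99- and 10.96-fold), from 71753612 to 71754112 (10.9- and 15.3-fold) and from 70212294 to 70212979 (8.21- and 9.31-fold). In WT mock, where 7 regions qualified, they ran from 62670378 to 62670878 (7.76- and 6.76-fold), from 65365494 to 65366299 (5.43- and 5.57-fold) and from 68640750 to 68641250 (5.43-fold in replicate 1, with the placeholder in replicate 2). Of these 12 regions, 8 were single windows of 500 bp.

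The tags inside the called band regions gave the same order of groups as the covered length. Each called window had to pass a tag threshold, so this order largely follows from the covered length and is no separate support. The intervals below treat tags as independent and cover counting error only, and in KO PMA, KO mock and WT PMA the replicates' intervals do not meet. Band regions held 0.380% of all tags in KO PMA replicate 1 (exact 95% Clopper-Pearson interval 0.377 to 0.383%) and 0.323% in replicate 2 (0.320 to 0.326%). In KO mock they held 0.1015% (0.10 to 0.103%) and 0.109% (0.107 to 0.111%). In WT PMA they held 0.0209% (0.0203 to 0.0214%) and 0.0276% (0.0268 to 0.0284%), and in WT mock 0.0093% (0.0089 to 0.0097%) and 0.0096% (0.0092 to 0.010%).

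In the KO PMA libraries the windows at the edges of the band held less than its median window. Just outside its start, from 59.5 to 60 Mb, 3.36 and 6.29 kb was covered in KO PMA, 0.5 and 2.5 kb in KO mock, 8.63 and 4.81 kb in WT PMA, with 2.27 and 2.0 kb in WT mock. Just inside its end, from 76.5 to 77 Mb, there were 11.4 and 11.6 kb in KO PMA, 8.13 and 12.9 kb in KO mock, 4.88 and 4.15 kb in WT PMA, with 1.15 and 0.5 kb in WT mock. Past its end, from 77 to 77.5 Mb, there were 3.76 and 5.16 kb in KO PMA, 1.0 and 1.63 kb in KO mock, 16.6 and 8.51 kb in WT PMA, with 2.5 and 2.86 kb in WT mock. One window further out, from 77.5 to 78 Mb, there were 28.9 and 32.4 kb in KO PMA, 6.30 and 10.5 kb in KO mock, 22.4 and 16.7 kb in WT PMA, with 7.72 and 3.655 kb in WT mock. Inside the last window KO lay above WT under both treatments. From 59.5 to 60 Mb the genotypes overlapped under both treatments. From 77 to 77.5 Mb KO lay below WT under both, and from 77.5 to 78 Mb KO PMA lay above WT PMA while KO mock and WT mock overlapped.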

How the data were processed

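The submitters' processing notes name CASAVA 1.4, BWA, HOMER and the hg19 build. Per the file headers, HOMER called regions separately in each library against the WT mock input, from windows of 500 bp past a tag threshold set by the library's depth, at least 2-fold over input at a Poisson p of 0.0001, and joined them. The deposited signal is a region's tag number per 10 M tags of the library. The deposited tag counts are unscaled in 5 libraries; in the others the authors scaled them to the input's depth. The deposited fold is the authors' ratio of tags to input tags at one depth, a value of the single region. The highest tag threshold, in the shallowest library, was 7.69 tags per 10 M and the lowest, in the deepest, 5.89, so deeper libraries could reach weaker windows. The input depth followed from scaled tags as 18.6 M.

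Covered base pairs after merging were computed per library and per 500-kb window of chromosomes 1 to 22 and X. A window needed coverage in 2 or more libraries to enter limma 3.58.1 (R 4.3.3, mean-variance trend, 4 groups in 1 fit of 8 libraries) on log2(covered bp + 1000), Benjamini-Hochberg adjusted over the genome at 0.05, two-sided. Such differences understate changes of little-covered windows, and neighbouring windows are not independent. Single values were compared by exact permutation tests with scipy 1.17.1 (Python 3.11.15, numpy 2.4.6, pandas 2.3.3). The members, windows and tests were chosen with earlier results of these data known. Windows were named by rule: in each comparison, the 5 largest changes in each direction past the threshold, and in each group the window with the largest mean covered length. Regions were named as the 3 highest by the lower of both folds per group, at most 1 per Mb, and the longest per library. Windows named beside gene positions were chosen after their values were seen. Planned tests of gene bodies were not run, since no hg19 annotation was used. Alternatives changed the pseudocount, filter, scaling, windows, regions, edges and libraries. For them only the counts of band windows are given, without the shares over all windows.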

Additional observations from a re-analysis of the deposited data

Results flagged for a closer look

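The genotype effect on covered length differed between PMA and mock, by the interaction term of the limma fit, in 10 windows of 500 kb in the band, with limma adjusted p-values from 0.00945 to 0.0486. Of all windows of the genome, 2.41% were larger and 21.9% smaller. After centring each library 17 windows of the band were larger and none smaller, and when regions under 6-fold over input were left out, 1 window, smaller after PMA, passed the threshold. It was larger after PMA from 64.5 to 65 Mb (log2 2.22), from 73 to 73.5 Mb (2.15), from 64 to 64.5 Mb (2.09), from 65.5 to 66 Mb (1.39) and from 60 to 60.5 Mb (0.58). From 73 to 73.5 Mb, 18.6 and 16.6 kb was covered in KO PMA and 6.6 and 4.62 kb in KO mock, against 0.642 and 1.65 kb in WT PMA, with 2.05 and 2.47 kb in WT mock. The window from 60 to 60.5 Mb rests on 0.5 kb in each WT mock library. The effect was smaller after PMA from 71 to 71.5 Mb (−2.77), from 70 to 70.5 Mb (−2.59), from 69.5 to 70 Mb (−2.34), from 68 to 68.5 Mb (−1.39) and from 70.5 to 71 Mb (−1.32). From 71 to 71.5 Mb, 4.52 and 4.505 kb was covered in KO PMA and 11.1 and 7.75 kb in KO mock, against 2.325 and 3.03 kb in WT PMA and 0 in both WT mock libraries.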

How the results depend on the processing

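For the number of changed band windows, 100-kb windows gave 65 for KO mock against WT mock, 76 for KO PMA against WT PMA and 45 for KO PMA against KO mock (of 146 tested). Regions of at least 6-fold over input gave 5, 13 and 2 for these comparisons, 5 for WT PMA against WT mock and 1 for the interaction. Regions of at least 1000 bp gave 15 for KO mock against WT mock and 2 for WT PMA against WT mock. With one tag threshold there were 9 for KO PMA against KO mock, 5 for WT PMA against WT mock and 3 for the interaction. The same number of regions per library gave 7 (6 higher, 1 lower) in KO cells and 3, all lower, in WT cells. A pseudocount of 100 bp gave 9 for KO PMA against KO mock and 6 for the interaction, and windows shifted by 250 kb gave 6 for the interaction. Centring gave 11, all lower, for WT PMA against WT mock and 17, all larger, for the interaction. Shares over all windows under these settings are not given, so the counts cannot be set against the genome. The causes were not tested.

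Leaving out 1 library gave 20 to 29 changed windows for KO mock against WT mock, 19 to 23 for KO PMA against WT PMA, 2 to 17 for KO PMA against KO mock, 10 to 17 for WT PMA against WT mock, and 2 to 9 for the interaction. KO over WT log2 covered length ranged from 3.27 to 3.40. The PMA over mock difference of the band's share, 0.02, was −0.16 at 6-fold, −0.0003 from 61 to 76 Mb, and −0.11 to 0.15 without 1 library. The band over rest ratio of median width, 0.10, was −0.055 with regions of at least 1000 bp, and that of covered kb per Mb was 0.58 there and 1.70 with one tag threshold.

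Shares of replicate 1 regions called again, in KO PMA, KO mock, WT PMA and WT mock, were 35.3, 24.1, 7.75 and 4.0% when 50% of a region had to overlap. At 6-fold they were 18.6, 10.1, 10.5 and 1.72%. With at least 1000 bp they were 57.1, 37.9, 0 and 0%, with one tag threshold 49.95, 32.5, 5.56 and 0%, and with equal numbers 41.25, 25.3, 0 and 4.17%.

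With the replicate number as a block there were 27, 23, 15, 17 and 9 changed windows in the 5 comparisons. Deviations of same-numbered libraries correlated from −0.073 to 0.227 between groups, and above 0.1 only for WT PMA and WT mock, so the numbers were not taken as a pairing. Over the pairs the smallest exact permutation p is 0.125. At 15.6 to 27.2 M tags, windows of few tags limit what could be called.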

Other observations

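At a finer scale, the most covered 100-kb stretch of the band in KO PMA ran from 65.3 to 65.4 Mb, with 77.7 ± 0.769 kb in KO PMA and 25.3 ± 2.40 kb in KO mock, against 2.10 ± 2.96 kb in WT PMA and 0.903 ± 0.138 kb in WT mock (mean ± SD, n = 2 each). Outside the band, the most covered window of chromosome 11 in KO PMA was that from 0.5 to 1.0 Mb, with 188 ± 24.7 kb, and in KO mock the same window held 58.2 ± 5.99 kb. In WT PMA the most covered window outside the band was the first of the chromosome, with 64.4 ± 7.61 kb. In WT mock it was that from 134.5 to 135.0 Mb, at the other end of the chromosome, with 102 ± 7.05 kb.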
